A study of Mus musculus with 27 samples.

Results

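The genes described here encode the presynaptic vesicle and release machinery: the proteins that fill the membrane of the synaptic vesicle, dock and prime it at the active zone, fuse it in response to calcium, and take its membrane back. They are 43 of the 22340 gene rows of a cortical RNA sequencing table, found by symbol from a list of such genes, and all 43 were abundant enough to be tested. The table covers 27 libraries of cortical RNA from wildtype C57BL6 mice aged 7 to 8 weeks, in 9 groups of 3. Animals with a stroke had the right middle cerebral artery blocked by a suture for 35 min, together with a ligature on the common carotid artery, and cortex was taken from the ipsilateral (occluded) or the contralateral hemisphere at 3, 6, 12 or 24 h of reperfusion. Sham animals were anesthetized and had their arteries exposed without a filament. Replicates came from distinct days of surgery, so a p-value here measures the spread between libraries of distinct days. Whether both hemispheres came from the same animal, and when and from which hemisphere sham tissue was taken, is not given in the sources used here.

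In a resting terminal the vesicle membrane carries synaptophysin, synaptogyrins and SV2 proteins, and synapsins tether vesicles into a reserve. Fusion is driven by SNARE proteins, of which synaptobrevin sits on the vesicle and syntaxin and SNAP-25 on the plasma membrane. Synaptotagmins sense calcium, complexins clamp and promote fusion, Munc13 and RIM proteins prime vesicles at the active zone, and the ATPase NSF takes spent SNARE complexes apart. Most of these transcripts are made in neurons and are commonly used as neuronal and synaptic markers in cortex.

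Total counts per library ran from 26505996 to 48830897, and the members together took 0.908 to 1.50% of them. Levels are CPM values, scaled by library size and edgeR's TMM factor. A pair of libraries stood apart. Mitochondrial ribosomal RNA took 40.4% of the counts in ipsilateral replicate 1 at 24 h. The next highest share was 36.7%, in contralateral replicate 1 at 3 h, which also had the lowest TMM factor of all libraries (0.845). Contralateral replicate 1 at 3 h had the lowest level of its group for Dnm1 (411 against 772 and 814 CPM), Unc13a (267 against 434 and 456) and Stx1a (80.9 against 162 and 149), and the highest for Sv2b (1380 against 944 and 975) and Syt4 (231 against 135 and 140). Without that library no member passed at 3 h, as with it. The identity of the tissue was checked with marker lists. Neuronal genes outside the synapse summed to 8370 to 8823 CPM in sham cortex, and choroid plexus markers to 7.80 to 14.9 CPM. In some libraries of replicate 1 the choroid plexus sum was far above this, at 745 CPM in ipsilateral cortex at 3 h and 355 at 6 h, and at 424, 86.8 and 194 CPM in contralateral cortex at 6, 12 and 24 h. Striatal neuron markers also differed between libraries of 1 group, with sums from 195 to 564 CPM in contralateral cortex at 3 h, 261 to 716 in ipsilateral cortex at 3 h and 193 to 414 in ipsilateral cortex at 24 h. The part of these markers in the values of the members was not tested. Otx2, a choroid plexus gene, had no count in 10 of the 27 libraries.

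In ipsilateral cortex the transcripts of the release machinery went down over the first day, by moderate amounts and across nearly every functional class. At 24 h, 29 of the 43 members were lower ipsilaterally than contralaterally and none was higher (adjusted p under 0.05), where 9.36% of all 18087 genes tested were lower and 9.74% higher. The strongest falls were in the plasma membrane SNARE gene Stx1a (1.79-fold), the synaptobrevin gene Vamp1 (1.72-fold), the vesicle scission gene Dnm1 (1.67-fold), the vesicle GTPase gene Rab3a (1.65-fold) and Syp, which encodes synaptophysin (1.64-fold). The median log2 fold change over the members was -0.43, against 0.03 over all genes tested. A bulk measurement cannot tell fewer neurons or terminals from less RNA in each cell.

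Summed over the 43 genes, the level was 14018 to 15047 CPM in the 3 sham libraries and 13807 to 14750 CPM in the 12 contralateral libraries. Ipsilateral libraries held 12961 to 13872 CPM at 3 h, 12068 to 13349 at 6 h, 11329 to 12289 at 12 h and 9669 to 10862 at 24 h. Every ipsilateral library thus lay below the contralateral libraries of its own time, and the 24 h libraries lay below all others. The sum of 24 neuron markers outside the synapse was also lower ipsilaterally, at 7467 to 7852 against 8126 to 8557 CPM at 6 h, 6707 to 7452 against 7679 to 8049 at 12 h and 6013 to 6713 against 7764 to 8157 at 24 h, without overlap. At 3 h the ipsilateral marker sums were 8018 to 8084 CPM, and the contralateral ones were 8472 and 8296 with 7136 in replicate 1, the library that stood apart.

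**Figure D1:**
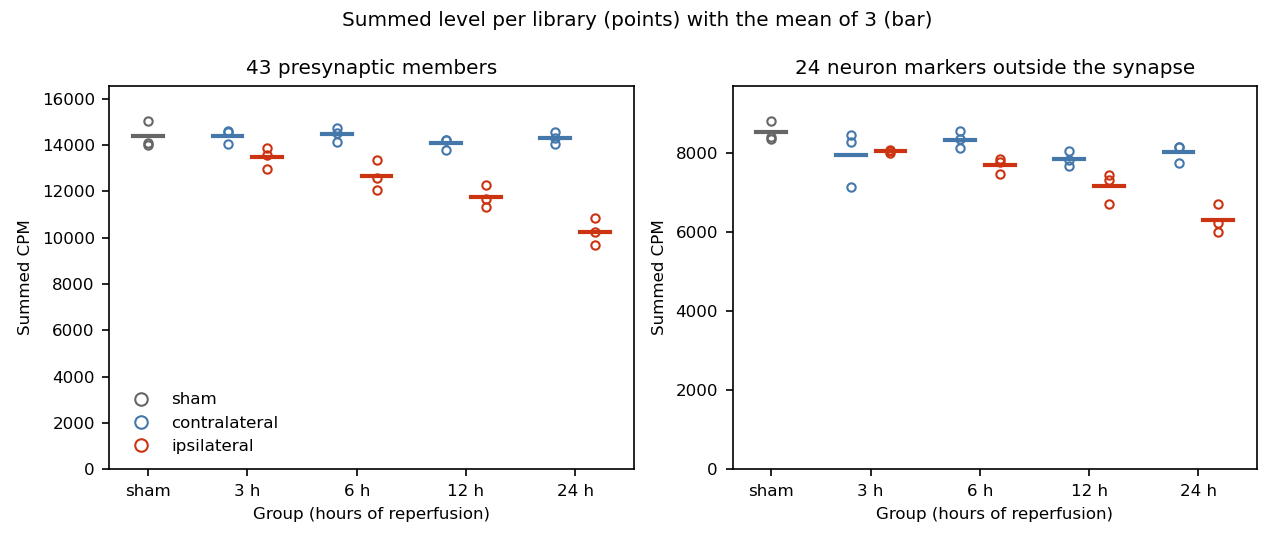
Summed CPM of the 43 presynaptic members (left) and of 24 neuron markers outside the synapse (right) in each library, by group and hours of reperfusion; open points are libraries and bars are means of 3. The ipsilateral member sum falls from 12961 to 13872 CPM at 3 h to 9669 to 10862 CPM at 24 h, and the sham and contralateral sums stay between 13807 and 15047 CPM.

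The sequences before the start sites of 5 members are shown because these genes carry the results that follow. Syngr1 was lower at 6, 12 and 24 h, Stx1a fell most against the contralateral side, Unc13a had the smallest adjusted p of all members against sham, Nsf had an effect that differed between times, and Unc13b is the Unc13a relative that passed in no comparison. Each is the 250 bases upstream of a RefSeq start site in GRCm38.p6, written 5' to 3' on the gene's strand, and none overlaps an exon of GENCODE M21. Capitals mark matches, on either strand, to GGGCGG (the GC box), TATAAA (the TATA box), TGACGTCA (the cyclic AMP response element), CACGTG (an E-box) or TGAGTCA (the AP-1 site).
Syngr1: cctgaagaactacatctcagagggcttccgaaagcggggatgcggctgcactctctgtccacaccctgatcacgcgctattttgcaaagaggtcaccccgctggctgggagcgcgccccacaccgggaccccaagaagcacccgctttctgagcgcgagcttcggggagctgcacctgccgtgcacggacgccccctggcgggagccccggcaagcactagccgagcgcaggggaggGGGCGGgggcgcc
Stx1a: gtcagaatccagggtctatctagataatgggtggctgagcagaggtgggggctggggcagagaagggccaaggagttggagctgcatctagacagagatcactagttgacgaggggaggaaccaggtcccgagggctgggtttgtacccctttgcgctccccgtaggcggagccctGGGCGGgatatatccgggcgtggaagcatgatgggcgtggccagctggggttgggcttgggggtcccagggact
Unc13a: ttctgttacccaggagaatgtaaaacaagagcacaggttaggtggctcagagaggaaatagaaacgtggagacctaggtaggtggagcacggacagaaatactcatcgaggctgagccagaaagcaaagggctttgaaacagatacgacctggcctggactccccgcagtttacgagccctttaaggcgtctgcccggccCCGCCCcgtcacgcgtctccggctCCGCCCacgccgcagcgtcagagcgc
Nsf: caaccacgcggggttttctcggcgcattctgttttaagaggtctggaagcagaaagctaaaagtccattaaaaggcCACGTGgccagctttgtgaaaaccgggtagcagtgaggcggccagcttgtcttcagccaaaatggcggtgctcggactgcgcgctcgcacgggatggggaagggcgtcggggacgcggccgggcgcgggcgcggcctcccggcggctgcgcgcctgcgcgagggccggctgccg
Unc13b: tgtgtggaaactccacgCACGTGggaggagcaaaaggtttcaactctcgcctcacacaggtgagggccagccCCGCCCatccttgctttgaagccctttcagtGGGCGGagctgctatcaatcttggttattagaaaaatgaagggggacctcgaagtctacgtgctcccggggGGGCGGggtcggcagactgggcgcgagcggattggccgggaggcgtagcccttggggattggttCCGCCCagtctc
They lie at chr15:80091084-80091333, plus strand, chr5:135023232-135023481, plus strand, chr8:71671758-71672007, minus strand, chr11:103954057-103954306, minus strand, and chr4:43058703-43058952, plus strand, in that order. The 3 windows of Syngr1, Stx1a and Unc13a hold 1, 1 and 2 GC boxes, that of Unc13b holds 4 and an E-box, and that of Nsf holds an E-box and no GC box. No 2 matches overlap in these windows.

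RefSeq promoters in the table covered 32 of the 43 members with 43 windows. A GC box stood in 55.8% of the member windows (23 genes) against 32.7% of the 32851 windows of all genes. A TATA box stood in 4.65% against 12.4%, and only Sv2b among the members had one. Median GC content was 61.2% in member windows and 52.4% in all windows, with a median of 13 and 6 CpG dinucleotides. The other matches were rare: the cyclic AMP response element in Syn1 alone, the AP-1 site in Syt2 and Erc2, and the E-box in Sv2b, Unc13b and Nsf. Of all windows, 1.55%, 4.46% and 6.02% held these 3 motifs. A match describes letters in the window only, and genes that fell and genes that did not both hold GC boxes.

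At 3 h no member passed in the comparison of ipsilateral with contralateral cortex (edgeR; 0.0166% of all genes tested were lower and 0.232% higher). Unadjusted p-values were under 0.05 for 4 members, Sv2a, Sv2b, Syt1 and Syt11, with all 4 log2 fold changes negative, and DESeq2 called none. The share of all genes under this unadjusted threshold is given only for the time test below. The 4 are therefore not read as a result about the members. Sv2b, a vesicle glycoprotein of the SV2 family, read 867, 754 and 843 CPM ipsilaterally and 1380, 944 and 975 contralaterally. Its ipsilateral values lay below all contralateral ones, with a log2 fold change of -0.42 ± 0.12 (SE, n = 3 per side; edgeR adjusted p = 0.180).

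At 6 h 5 members were lower and none was higher, where 2.14% of all genes were lower and 5.85% higher. They were the vesicle membrane genes Syp and Syngr1 and the synaptotagmin genes Syt1, Syt2 and Syt11. Syt2, a fast calcium sensor prominent in parvalbumin interneurons, read 59.9, 71.1 and 72.1 CPM ipsilaterally and 89.7, 112 and 92.8 contralaterally. Its sides did not overlap (log2 fold change -0.54 ± 0.16, edgeR adjusted p = 0.0325). Syt1, the main fast calcium sensor of cortical excitatory terminals, read 1206, 956 and 974 CPM ipsilaterally against 1405, 1276 and 1267 contralaterally. These sides did not overlap either (-0.33 ± 0.10, edgeR adjusted p = 0.0422), and ipsilateral replicate 1 was the highest of its group. Each of the 6 h calls was lost in 4 or 5 of the 6 omissions of a library, which also leave fewer libraries, and none changed sign. Omitting contralateral replicate 1, 2 or 3 left 1, 2 or 0 members lower, and omitting ipsilateral replicate 1, 2 or 3 left 2, 0 or 4. Of the 2 left without ipsilateral replicate 1 only Syt1 was among the 5, and Pclo was the other. No member kept its 6 h call through all 6 omissions, and with the day of surgery as a block Pclo also passed (edgeR adjusted p = 0.0342).

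At 12 h 10 members were lower and none was higher, where 4.3% of all genes were lower and 7.94% higher. All 5 members called at 6 h were among them, joined by Sv2a, Syt5, Pclo, Rab3a and Nsf. Syt11, a synaptotagmin that lacks calcium binding, had the smallest adjusted p, with 390, 399 and 390 CPM ipsilaterally against 587, 519 and 518 contralaterally. The sides were well apart (-0.46 ± 0.09, edgeR adjusted p = 0.00128). Syp, the most abundant vesicle membrane protein gene per length, read 421, 495 and 455 CPM ipsilaterally against 722, 625 and 602 contralaterally. Again no ipsilateral library reached a contralateral one (-0.51 ± 0.10, edgeR adjusted p = 0.00167). Omitting contralateral replicate 2 or 3 left 6 members lower in either case, and omitting ipsilateral replicate 1 or 3 left 3 or 5. Syp, Syt1 and Syt11 passed in all 6 omissions. With the day of surgery as a block Rims2 was also lower (edgeR adjusted p = 0.0453) and Doc2b was higher (edgeR adjusted p = 0.0402).

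All 10 members called at 12 h were called again at 24 h, and 19 more first passed at 24 h. All 3 ipsilateral libraries lay below all 3 contralateral ones in 4 members at 3 h (5.04% of all genes tested), 20 at 6 h (15.9%), 21 at 12 h (15.7%) and 30 at 24 h (17.6%). Day by day, 35 members read lower ipsilaterally at 24 h on each of the 3 surgery days, as did 26.9% of all genes tested. Without any single 24 h library the count was between 22 and 28, and 21 of the 29 passed in all 6 omissions. The other 8 were Synpr, Syngr3, Syt5, Cplx2, Rab3c, Rph3a, Amph and Synj1, described under their roles. With the block Syt7 also passed (edgeR adjusted p = 0.0481).

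**Figure D2:**
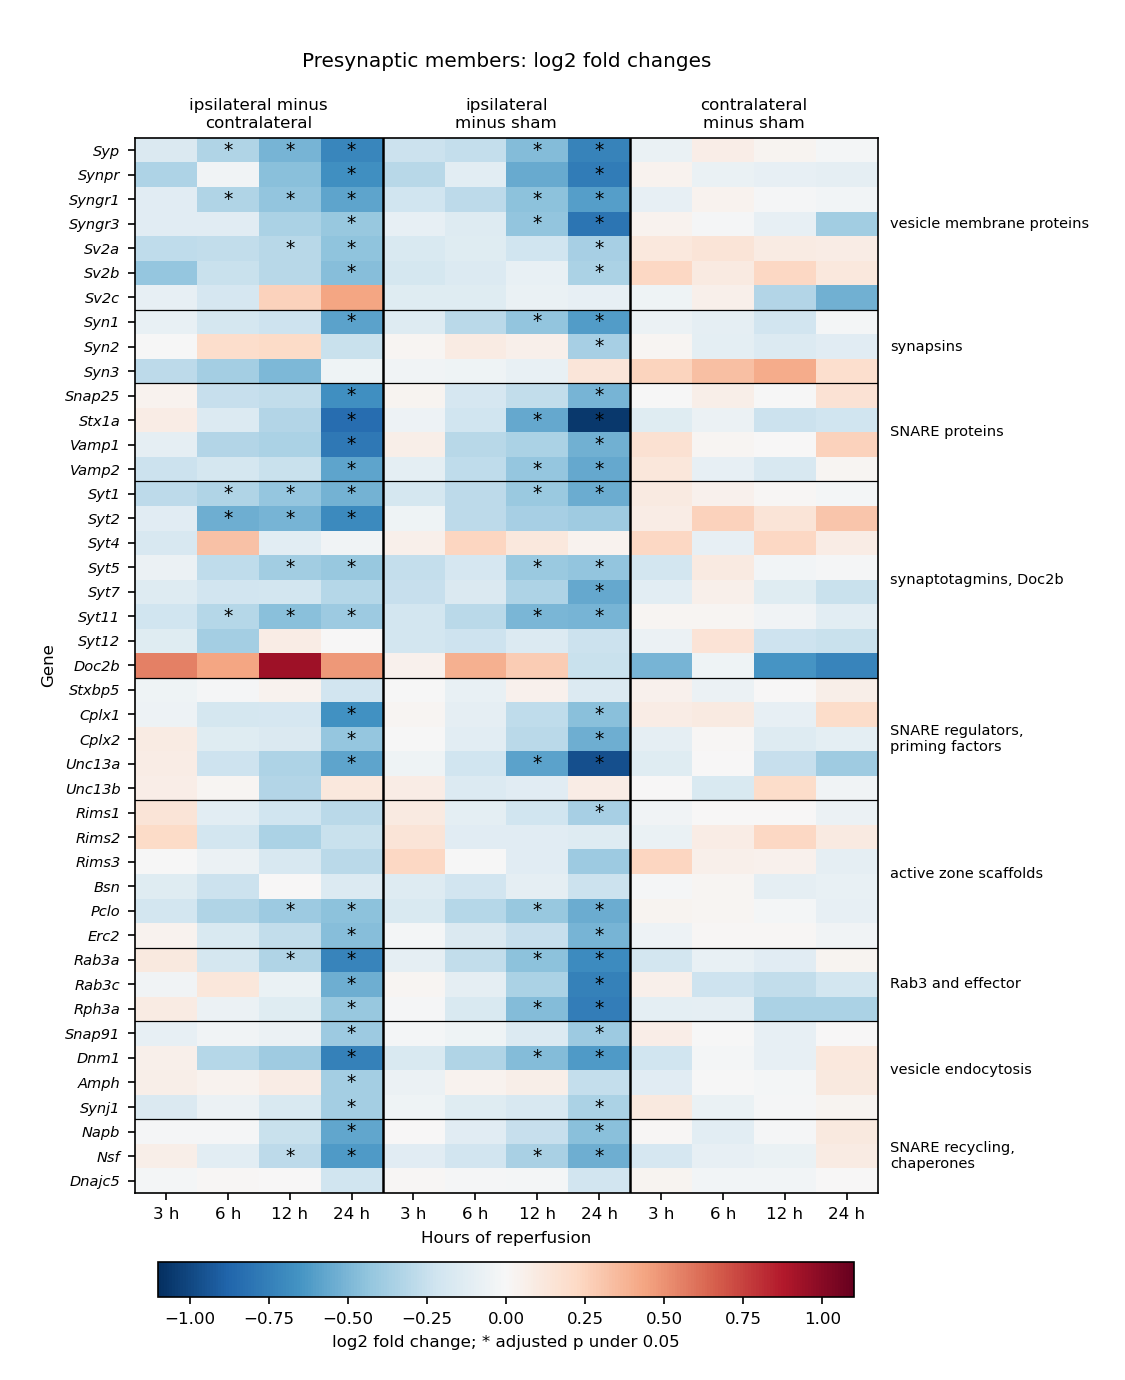
Heat map of log2 fold changes of the 43 members (rows, by role) at 3, 6, 12 and 24 h of reperfusion (columns) for ipsilateral minus contralateral, ipsilateral minus sham and contralateral minus sham; an asterisk marks an adjusted p under 0.05. Asterisks number 0, 5, 10 and 29 in the first block, 0, 0, 15 and 30 in the second and none in the third, and all stand on blue cells (lower).

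Among the vesicle membrane proteins 6 of 7 were lower at 24 h (median log2 fold change -0.47). Syp (mm10, chromosome X, 7638471 to 7653256, plus strand) had 353, 380 and 410 CPM ipsilaterally and 594, 659 and 625 contralaterally, with 632, 619 and 657 in sham cortex. The ipsilateral libraries lay under both other groups, by -0.72 ± 0.10 against the contralateral side (edgeR adjusted p = 3.36e-05) and -0.74 ± 0.10 against sham (2.03e-05). Of its exonic bases 16.8% overlap an antisense gene, Gm14703, and reads of the pair may not be told apart, since the strand setting of the counting is not given. Syngr1, a synaptogyrin of the same four-pass membrane family (chromosome 15, 80091334 to 80119501, plus strand), had 338, 384 and 383 CPM against 499, 536 and 617. It was clearly lower in every ipsilateral library (-0.58 ± 0.11, edgeR adjusted p = 0.000391). Sv2a, the vesicle glycoprotein bound by the antiseizure drug levetiracetam, had 334, 334 and 360 CPM against 440, 452 and 507, again without overlap (-0.44 ± 0.10, edgeR adjusted p = 0.00338). Sv2b (-0.47 ± 0.12), Synpr (-0.67 ± 0.21) and Syngr3 (-0.42 ± 0.13) also fell. The edgeR adjusted p of Synpr was 0.101 and 0.0884 when contralateral replicate 1 or 2 was omitted and 0.0845 and 0.0523 when ipsilateral replicate 2 or 3 was. That of Syngr3 was 0.0621 and 0.130 on omitting contralateral replicate 1 or 2 and 0.101 on omitting ipsilateral replicate 3. Sv2c, the SV2 form least abundant here, read 47.8, 25.1 and 22.3 CPM ipsilaterally and 25.8, 24.9 and 19.5 contralaterally, so that replicate 1 alone lay high (0.44 ± 0.33, edgeR adjusted p = 0.386). Striatal marker sums in those libraries were 414, 237 and 193 CPM ipsilaterally and 362, 383 and 194 contralaterally. Both Sv2c (46.7 CPM) and the striatal sum (564 CPM) were also the highest of their group in contralateral replicate 1 at 3 h. In ipsilateral cortex at 3 h they were not highest together. Replicate 1 had a striatal sum of 716 CPM with Sv2c at 31.8 CPM, and replicate 2 had 429 CPM with Sv2c at 38.0 CPM. The part of striatal tissue in the Sv2c values was not tested.

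The synapsins, which coat vesicles and hold them in the reserve pool, differed among themselves at 24 h, with 1 of 3 lower. Syn1 had 126, 139 and 144 CPM ipsilaterally and 202, 205 and 209 contralaterally, and the sides were far apart compared with the spread within each (-0.59 ± 0.10, edgeR adjusted p = 0.000214). Syn2 had 226, 298 and 297 CPM against 341, 346 and 285, with an overlap between the sides (-0.24 ± 0.11, edgeR adjusted p = 0.123). Against sham, where Syn2 read 364, 360 and 335 CPM, it was lower at 24 h (-0.37 ± 0.11, edgeR adjusted p = 0.0181), with an adjusted p of 0.0660 and 0.0525 without sham replicates 1 and 2 and 0.121 without ipsilateral replicate 1. Syn3 was scarce at 13.6 to 20.8 CPM in sham cortex and had a log2 fold change of -0.05 ± 0.19 at 24 h, and 14.1% of its exonic bases overlap Timp3 on the other strand.

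All 4 SNARE genes were lower at 24 h (median -0.73), and none had been called earlier against the contralateral side. Stx1a, syntaxin 1A of the presynaptic plasma membrane (chromosome 5, 135023482 to 135051100, plus strand), had 55.5, 72.1 and 79.3 CPM ipsilaterally, 120, 127 and 123 contralaterally and 151, 140 and 141 in sham cortex. The ipsilateral libraries fell far below both, by -0.84 ± 0.18 against the contralateral side (edgeR adjusted p = 0.00151) and -1.06 ± 0.18 against sham (edgeR adjusted p = 0.000145). The second value is a 2.08-fold fall and the only one of at least 2-fold among the members in any comparison. Vamp1, synaptobrevin 1, had 56.4, 59.8 and 69.8 CPM against 115, 87.8 and 117, without overlap (-0.78 ± 0.14, edgeR adjusted p = 0.000309). Vamp2, the main synaptobrevin of forebrain vesicles, had 116, 143 and 151 CPM against 203, 218 and 193, also without overlap (-0.58 ± 0.13, edgeR adjusted p = 0.00187). Snap25, which supplies a pair of helices to the SNARE bundle, went from 1235, 968 and 1053 CPM contralaterally to 596, 627 and 818 ipsilaterally (-0.67 ± 0.16, edgeR adjusted p = 0.00343). Against sham (1165, 924 and 830 CPM) its fall was -0.52 ± 0.16, with an edgeR adjusted p of 0.0188 that rose to 0.148 with sham replicate 1 omitted and to 0.0860 or 0.0680 with ipsilateral replicate 1 or 2 omitted.

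Of the 7 synaptotagmins and Doc2b, a related class of which some members sense calcium, 4 of 8 were lower at 24 h (median -0.36). Syt1 (chromosome 10, 108497650 to 109010982, minus strand) had 942, 813 and 870 CPM ipsilaterally and 1326, 1225 and 1213 contralaterally (-0.52 ± 0.10, edgeR adjusted p = 0.000875). Per kilobase of exon it was the most abundant member in sham cortex, at 153 CPM per kb. Syt11 had 417, 391 and 359 CPM against 489, 504 and 543 (-0.40 ± 0.09, edgeR adjusted p = 0.00331), and Syt5 fell by 0.42 on the log2 scale. The edgeR adjusted p of Syt5 was 0.0642 with contralateral replicate 2 omitted and 0.0729 with ipsilateral replicate 1 omitted. Syt2 had 73.6, 58.1 and 56.7 CPM ipsilaterally, 99.9, 79.9 and 126 contralaterally and 82.2, 79.0 and 86.3 in sham cortex. It was lower against the contralateral side (-0.70 ± 0.16, edgeR adjusted p = 0.00265), and against sham the difference was -0.39 ± 0.16 (edgeR adjusted p = 0.0718), although all 3 ipsilateral libraries lay below all 3 sham ones. Of 10 genes listed as markers of parvalbumin interneurons, in which Syt2 is prominent, 2 were lower at 24 h and 8 did not pass. Those lower were Pvalb (19.8 against 39.4 CPM, log2 fold change -0.99) and Kcnc2 (-0.36), and the fitted values of Gad2, Tac1 and Cox6a2 were positive. Tac1 is also on the striatal list. Gad2 (156 CPM), Tac1 (21.7 CPM) and the striatal sum (414 CPM) were each highest of their group in ipsilateral replicate 1. The sum of the 10 ran from 886 to 1149 CPM ipsilaterally and from 1064 to 1170 contralaterally; its part in the Syt2 value was not tested.

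The remaining members of this class did not pass against the contralateral side at 24 h. Syt4, a synaptotagmin induced by neuronal activity, had 145, 140 and 158 CPM ipsilaterally and 163, 162 and 131 contralaterally, with full overlap (-0.04 ± 0.16, edgeR adjusted p = 0.891). At 6 h it had read 205, 179 and 125 CPM against 157, 118 and 132 (0.33 ± 0.16, edgeR adjusted p = 0.240). On omitting ipsilateral replicate 3, the lowest of its side, Syt4 was higher at 6 h (0.51, edgeR adjusted p = 0.0499). Of the exonic bases of Syt4, 14.5% overlap Gm26658 on the other strand. Doc2b, a high-affinity sensor linked to spontaneous release, had 26.0, 10.6 and 11.0 CPM ipsilaterally at 12 h and 11.5, 5.93 and 7.71 contralaterally. Its sides overlapped, replicate 1 was highest on both, and the difference of 0.93 ± 0.32 did not pass (edgeR adjusted p = 0.0633). Sham cortex held 12.3, 14.7 and 12.3 CPM of Doc2b, so that the contralateral values at 12 h lay below sham while ipsilateral replicate 1 lay above it. Striatal marker sums at 12 h were 402, 256 and 294 CPM ipsilaterally and 556, 211 and 249 contralaterally, again highest in replicate 1, and their part was not tested. Syt7, a slow sensor for asynchronous release, gave -0.32 ± 0.12 against the contralateral side (edgeR adjusted p = 0.0704) and -0.56 ± 0.12 against sham (edgeR adjusted p = 0.00179). Syt12 gave 0.01 ± 0.15, and 17.2% of its exonic bases overlap A930001C03Rik on the other strand.

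Of the 5 SNARE regulators and priming factors 3 were lower at 24 h (median -0.43). Cplx1, complexin 1, had 111, 125 and 133 CPM ipsilaterally and 193, 184 and 207 contralaterally, without overlap (-0.66 ± 0.14, edgeR adjusted p = 0.00145). Cplx2, the complexin more abundant in this cortex per length, had 296, 291 and 411 CPM against 437, 471 and 435, with ipsilateral replicate 3 closest to the other side (-0.43 ± 0.12, edgeR adjusted p = 0.00972). The call of Cplx2 was lost on omitting ipsilateral replicate 1 (edgeR adjusted p = 0.0551) or 2 (0.0592). Unc13a, the main Munc13 priming factor of excitatory terminals (chromosome 8, 71624417 to 71671757, minus strand), had 201, 207 and 240 CPM ipsilaterally, 323, 335 and 310 contralaterally and 416, 408 and 444 in sham cortex. The 3 groups did not overlap, with -0.58 ± 0.13 against the contralateral side (edgeR adjusted p = 0.00254) and -0.97 ± 0.13 against sham (edgeR adjusted p = 1.38e-05).

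The contralateral level of Unc13a itself was -0.39 ± 0.13 from sham at 24 h, which did not pass (edgeR adjusted p = 0.390). It passed when the model held only the libraries compared (edgeR adjusted p = 0.0390) or left out the pair of libraries that stood apart (edgeR adjusted p = 0.0279). Its relative Unc13b, which primes vesicles at a minority of synapses, had 63.4, 68.2 and 48.0 CPM ipsilaterally and 55.6, 68.0 and 41.7 contralaterally, with full overlap (0.12 ± 0.15, edgeR adjusted p = 0.623). Stxbp5, tomosyn 1, which competes with synaptobrevin for syntaxin, gave -0.21 ± 0.11 (edgeR adjusted p = 0.172).

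Of the 6 active zone scaffolds 2 were lower at 24 h, and all 6 fitted values were negative (median -0.30). Pclo, the giant scaffold piccolo, had 421, 378 and 362 CPM ipsilaterally and 554, 558 and 473 contralaterally, without overlap (-0.45 ± 0.11, edgeR adjusted p = 0.00663). Erc2, the ELKS family scaffold CAST, had 130, 125 and 134 CPM against 187, 198 and 152, with tightly grouped ipsilateral values (-0.47 ± 0.10, edgeR adjusted p = 0.00237). Bsn, bassoon, the partner of piccolo, had 547, 649 and 688 CPM against 646, 733 and 711, and its sides overlapped (-0.15 ± 0.11, edgeR adjusted p = 0.387). The RIM genes, whose products tether calcium channels and prime vesicles, gave -0.30 ± 0.12 for Rims1, -0.25 ± 0.12 for Rims2 and -0.30 ± 0.15 for Rims3. None of these 3 passed against the contralateral side (edgeR adjusted p = 0.0944, 0.144 and 0.159), although Rims1 and Rims2 had no overlap between sides. Against sham Rims1 was lower (-0.36 ± 0.12, edgeR adjusted p = 0.0352), a call lost in each of the 6 omissions of a library (adjusted p from 0.0708 to 0.0964). Rims3 was at the threshold against sham (edgeR adjusted p = 0.0520) and passed with the block (edgeR adjusted p = 0.0325).

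Rab3a, Rab3c and their effector Rph3a were all lower at 24 h (median -0.54). Rab3a, the main vesicle-bound Rab3 GTPase (chromosome 8, 70754679 to 70758677, plus strand), had 117, 128 and 138 CPM ipsilaterally, 219, 197 and 215 contralaterally and 231, 197 and 191 in sham cortex. The ipsilateral libraries lay far below both (-0.72 ± 0.11 against the contralateral side, edgeR adjusted p = 6.54e-05, and -0.69 ± 0.11 against sham, edgeR adjusted p = 8.43e-05). Rab3c had 167, 184 and 195 CPM against 285, 288 and 222 (-0.54 ± 0.15, edgeR adjusted p = 0.0132), and Rph3a, rabphilin, had 137, 144 and 148 against 200, 188 and 186 (-0.42 ± 0.15, edgeR adjusted p = 0.0493). Neither overlapped between sides. The call of Rab3c was lost without contralateral replicate 1 or 2 or ipsilateral replicate 1 (adjusted p from 0.0544 to 0.0573), and that of Rph3a in every omission (adjusted p from 0.0741 to 0.135). For Rph3a the contralateral level at 24 h was -0.34 ± 0.15 from sham, which did not pass (edgeR adjusted p = 0.707), and ipsilateral cortex was lower than sham by 0.76 ± 0.15 (edgeR adjusted p = 0.000675).

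All 4 genes of vesicle endocytosis were lower at 24 h (median -0.39), and none was called earlier against the contralateral side. Dnm1, dynamin 1, the GTPase that cuts the vesicle neck, had 467, 522 and 522 CPM ipsilaterally, 825, 849 and 849 contralaterally and 855, 737 and 737 in sham cortex. The ipsilateral libraries were the lowest of all 3 groups (-0.74 ± 0.15 against the contralateral side, edgeR adjusted p = 0.00101). Snap91, the clathrin adaptor AP180, had 148, 167 and 162 CPM against 223, 203 and 204, without overlap (-0.40 ± 0.09, edgeR adjusted p = 0.00269). Amph, amphiphysin, had 119, 154 and 169 CPM against 196, 196 and 181 (-0.37 ± 0.11, edgeR adjusted p = 0.0180). Its ipsilateral replicate 1 was lowest, its adjusted p without that library was 0.133, and against sham it did not pass (-0.26 ± 0.11, edgeR adjusted p = 0.0859). Without contralateral replicates 1 and 2 the adjusted p of Amph was 0.0595 and 0.0576. Synj1, the phosphatase synaptojanin 1 that strips clathrin coats, fell by 0.38 on the log2 scale (edgeR adjusted p = 0.0356), with an adjusted p from 0.0514 to 0.131 on omitting any of the 24 h libraries other than ipsilateral replicate 3.

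Of the 3 genes for SNARE recycling and chaperoning 2 were lower at 24 h (median -0.57). Nsf, the ATPase that disassembles SNARE complexes (chromosome 11, 103821782 to 103954056, minus strand), had 419, 456 and 458 CPM ipsilaterally, 689, 682 and 683 contralaterally and 700, 617 and 618 in sham cortex. Its contralateral libraries were nearly identical and all ipsilateral ones far lower (-0.62 ± 0.09, edgeR adjusted p = 6.05e-05). Napb, beta-SNAP, the neuronal adaptor that brings NSF to the complex, had 330, 377 and 381 CPM against 585, 528 and 500 (-0.57 ± 0.13, edgeR adjusted p = 0.00257). Dnajc5, the vesicle cochaperone cysteine string protein, had 250, 300 and 350 CPM against 360, 328 and 356, with replicate 3 inside the contralateral range (-0.22 ± 0.10, edgeR adjusted p = 0.135). Without ipsilateral replicate 3 the fall of Dnajc5 was -0.34 and passed (edgeR adjusted p = 0.0236). The levels of Sv2b, Sv2c, Syngr3, Syn2, Snap25, Syt4, Doc2b, Unc13b, Bsn and Dnajc5 by library fall outside the rule for named genes and were chosen after their values were seen.

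**Figure D3:**
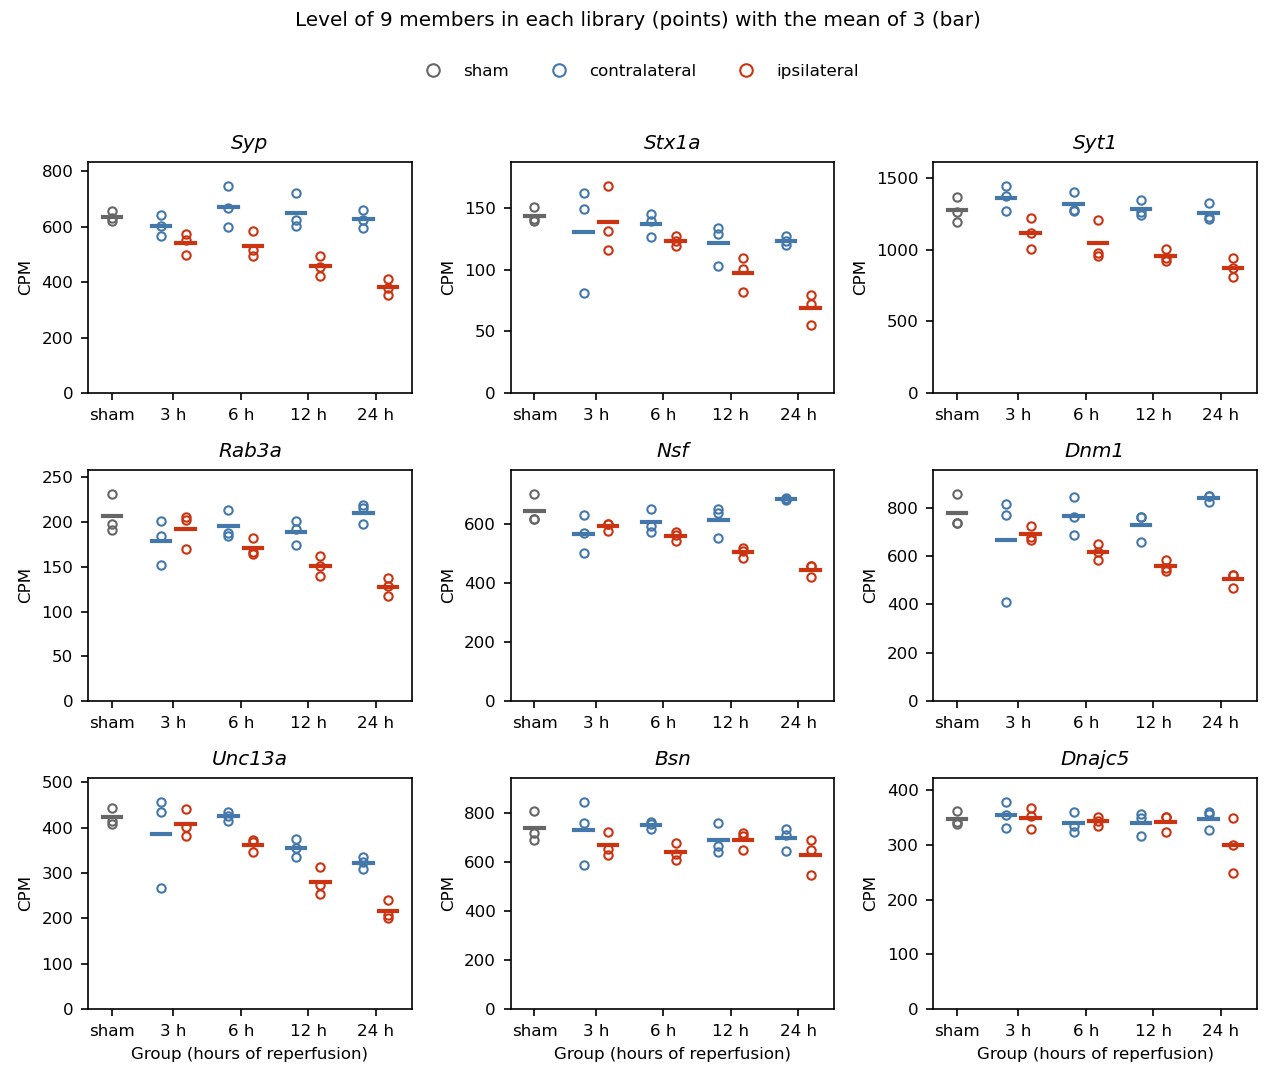
CPM of Syp, Stx1a, Syt1, Rab3a, Nsf, Dnm1, Unc13a, Bsn and Dnajc5 in each of the 27 libraries (open points) with the mean of 3 (bar), by group and hours of reperfusion; each vertical axis starts at 0. In the first 7 genes the ipsilateral points at 24 h lie below the sham points and the contralateral points at 24 h, and in Bsn and Dnajc5 they overlap the latter.

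How the ipsilateral effect moved with time was tested by asking whether the 4 ipsilateral to contralateral differences were equal. This test passed for 2 members, Rab3a and Nsf, where 1.34% of all genes passed; 19 members (44.2%) had an unadjusted p under 0.05, as did 16.6% of all genes. Rab3a went through log2 fold changes of 0.11, -0.19, -0.33 and -0.72 at 3, 6, 12 and 24 h, a change of -0.83 ± 0.16 from 3 to 24 h (edgeR adjusted p of the time test 0.0239). Its ipsilateral mean was 192 ± 19.5, 171 ± 9.77, 151 ± 11.2 and 128 ± 10.3 CPM (SD, n = 3) at those times, with contralateral means between 179 and 211. Nsf went through 0.06, -0.12, -0.28 and -0.62 (change -0.69 ± 0.13, edgeR adjusted p of the time test 0.0247). Its ipsilateral mean was 592 ± 13.7, 559 ± 16.4, 504 ± 18.7 and 445 ± 22.2 CPM (SD, n = 3). In both genes the ipsilateral mean was lower at each later time. At 3 h the contralateral library that stood apart read 152 CPM for Rab3a and 501 for Nsf, the lowest of its group for both.

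The time test of Rab3a missed the threshold on omitting replicate 1 of either side at 24 h, or ipsilateral replicate 2 or 3 at 3 h (edgeR adjusted p from 0.0563 to 0.0630). That of Nsf missed it on omitting contralateral replicate 1 or 2 or ipsilateral replicate 1 at 24 h, or ipsilateral replicate 1 or 3 at 3 h (edgeR adjusted p from 0.0515 to 0.0582). With the block Stx1a passed as well (edgeR adjusted p = 0.0347), and DESeq2 called 4 members. The fitted effect was lower at each later time in 19 of the 43 members, among them Syp, Syt1, Stx1a, Snap25, Unc13a and Dnm1. None of these 6 passed the edgeR test over the 4 times. The single contrast of the 24 h effect with the 3 h effect, chosen after the data were seen, was lower at 24 h for 8 members, where 1.71% of all genes were. They were Syp, Syn1, Stx1a, Vamp1, Unc13a, Dnm1, Rab3a and Nsf. The edgeR adjusted p of this contrast was 0.0353 for Syp, 0.0391 for Stx1a, 0.0371 for Dnm1 and 0.0443 for Unc13a, against 0.0698 for Snap25 and 0.372 for Syt1. Rab3a and Nsf passed it in every omission of 1 library from the stroke groups, and were the 2 members that passed when the model held only those groups. That fit called 171 genes lower over the whole table. Omitting the libraries at 3 and 24 h in turn left between 2 and 13 members, with the fewest on omitting ipsilateral replicate 3 at 3 h or ipsilateral replicate 1 at 24 h (2 each). Omitting contralateral replicate 1 or 2 at 24 h or ipsilateral replicate 2 at either of these times left 3, and omitting ipsilateral replicate 1 at 3 h left 5. Omitting contralateral replicate 2 or 3 at 3 h left 13 or 12, and omitting contralateral replicate 1 or 3 at 6 h or replicate 3 at 12 h left 5. Genes called lower over the whole table numbered 309 with all libraries. They were 690 and 529 where 13 and 12 members were left, and 126 and 146 where 2 were. Where 3 or 5 members were left, these genes numbered 134 to 242 and 223 to 254. Omitting ipsilateral or contralateral replicate 3 at 24 h left 10 or 7 members, with 247 and 398 genes. Without contralateral replicate 1 at 3 h, the library that stood apart, 9 passed, 6 of them among the 8, and Syn1 and Vamp1 were lost. The contrast then moved from -0.79 to -0.54 for Dnm1, from -0.66 to -0.46 for Unc13a and from -0.92 to -0.67 for Stx1a.

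Against sham, the same ipsilateral libraries gave 0 members lower at 3 h and at 6 h (0.0166% and 1.09% of all genes; edgeR), 15 at 12 h (3.72%) and 30 at 24 h (10.9%). None was higher, where 0.227, 5.03, 6.58 and 11.3% of all genes were. Unadjusted p-values were under 0.05 for 5 members at 3 h and 11 at 6 h, all negative, and DESeq2 called 0 and 2. No share of all genes under that unadjusted threshold is given beside these counts, so they are not read as a result. With the block 2 passed at 6 h, Syt1 (edgeR adjusted p = 0.0406) and Syt11 (edgeR adjusted p = 0.0398). All 3 ipsilateral libraries lay below all 3 sham ones in 11, 20, 25 and 35 members at 3, 6, 12 and 24 h (8.35, 14, 17.3 and 20.9% of all genes). Omitting sham replicate 1 or 2 brought the 12 h count to 4 or 9, and omitting ipsilateral replicate 1 or 3 to 4 or 7, with Syp, Syt11 and Unc13a called in all 6 omissions. Stx1a, Syngr3, Syn1, Vamp2, Unc13a, Rph3a and Dnm1 were lower than sham at 12 h without being called against the contralateral side at that time. Syngr3, a synaptogyrin, had 58.1, 52.6 and 46.2 CPM ipsilaterally at 24 h, 72.7, 81.1 and 56.0 contralaterally and 89.5, 91.2 and 92.3 in sham cortex. Its contralateral values lay below all sham values without passing (-0.38 ± 0.12, edgeR adjusted p = 0.375), and its ipsilateral values were lower than sham by -0.80 ± 0.13 (edgeR adjusted p = 7.02e-05). Of the 24 h calls 27 were made in both comparisons, which share the ipsilateral libraries, and 11 members were called in neither.

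In contralateral cortex no member differed from sham at any time by edgeR (lower in 0.0111, 0.0332, 0.144 and 0.0829% of all genes at 3, 6, 12 and 24 h). Unadjusted p-values were under 0.05 for 0, 0, 3 and 4 members, and the 24 h ones were Syngr3, Doc2b, Unc13a and Rph3a, each lower. Here too the share of all genes at the unadjusted threshold is not given, and these counts are not read as a result. DESeq2 called none at any of the 4 times. None was higher, where 0, 0, 0.094 and 0.0276% of all genes were. All 3 contralateral libraries lay below all 3 sham ones in 1, 1, 5 and 7 members (5.61, 7.52, 8.75 and 7.43% of all genes). Doc2b read 7.56, 11.0 and 5.30 CPM contralaterally at 24 h against 12.3 to 14.7 in sham cortex, without overlap (-0.72 ± 0.32, edgeR adjusted p = 0.724).

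The members that were not called at 24 h were less abundant than those that were. Per kilobase of exon, the 29 called members had a median of 53.9 CPM in sham cortex (range 8.79 to 153) and the other 14 a median of 18.9 (range 1.34 to 50.2). The 5 scarcest members per length, Syn3, Unc13b, Doc2b, Sv2c and Syt12, had fitted values from -0.05 to 0.48 and none was called, while Vamp1 at 8.79 CPM per kb was among the strongest falls. Over the 43 members the log2 level per length and the 24 h log2 fold change had a Spearman correlation of -0.52 and a Pearson correlation of -0.64, given as a description of genes measured in the same libraries. Exon length had a Spearman correlation of 0.23 with the fold change. The standard errors of the 14 ran from 0.10 for Dnajc5 to 0.33 for Sv2c.

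**Figure D4:**
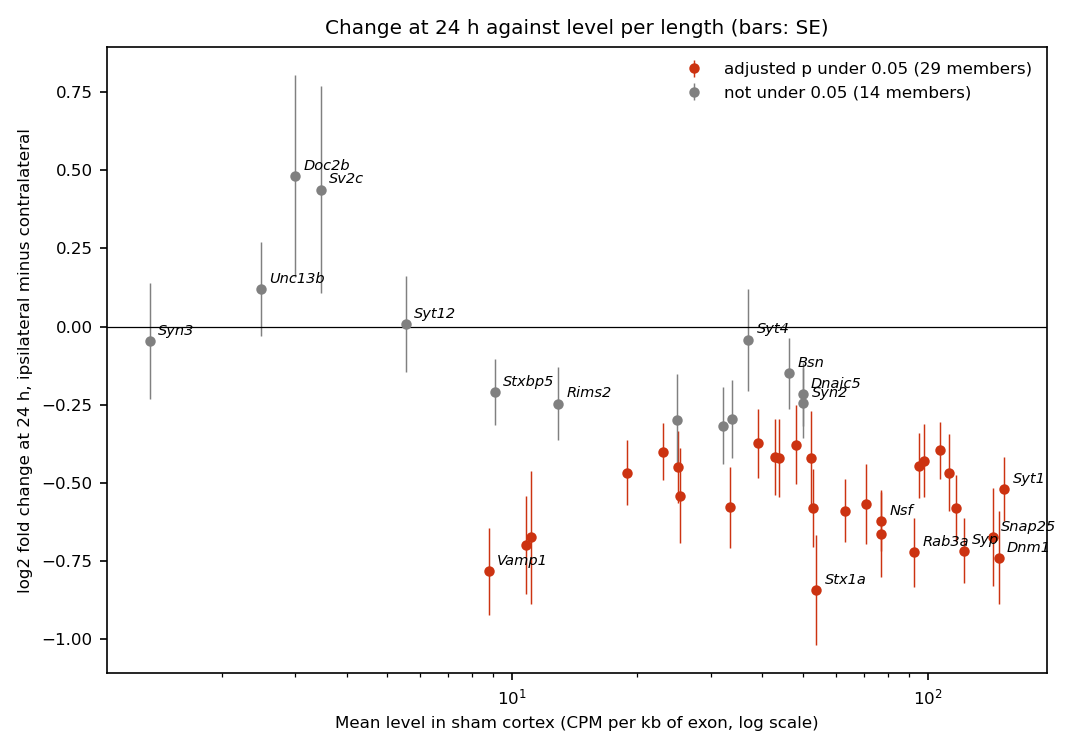
Log2 fold change at 24 h, ipsilateral minus contralateral, with its SE (bars), against the mean sham level in CPM per kb of exon on a log axis; each point is a member, red where the adjusted p was under 0.05 (29) and grey elsewhere (14). The 5 leftmost points, from 1.34 to 5.54 CPM per kb, are grey and lie between -0.05 and 0.48.

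Related gene lists, set down with earlier results of these data known, also held many lower genes at 24 h. Of all genes tested, 9.36% were lower and 9.74% higher. The number of higher genes is given here for the first list only. Of 39 other genes of the release machinery 18 were lower and 0 higher (median -0.38), led by Cadps2, a priming factor of dense-core vesicles, at 80.5 ± 7.49 against 151 ± 20.3 CPM (SD, n = 3; log2 fold change -0.91 ± 0.13, edgeR adjusted p = 2.81e-05). Of 20 vesicular transporters and proton pump subunits 11 were lower (median -0.42), including Slc17a7, the glutamate transporter VGLUT1 of cortical terminals, at 576 ± 75.5 against 949 ± 69.6 CPM (-0.72 ± 0.11, edgeR adjusted p = 8.57e-05). The pump subunit gene Atp6v1e1 went from 234 to 134 CPM (-0.81 ± 0.11). Of 21 other endocytosis genes 8 were lower (median -0.22), with the clathrin adaptor subunits Ap2a2 and Ap2m1 among them. On the other side of the synapse 9 of 27 postsynaptic density genes were lower (median -0.23), such as the kinase gene Camk2a (-0.57 ± 0.12, edgeR adjusted p = 0.00117) and the scaffold gene Dlg3 (-0.66 ± 0.10).

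Of the neuron markers outside the synapse 13 of 24 were lower at 24 h and none was higher (median -0.40), among them Stmn2 (-0.76 ± 0.12), Stmn3 (-0.82 ± 0.14) and Eno2 (-0.59 ± 0.10). Among markers of other cells, 2 of 8 tested for infiltrating myeloid cells were higher. The sum of the 9 such markers with a row was 6.89 to 40.9 CPM ipsilaterally against 6.29 to 10.2 contralaterally. Its highest value was in ipsilateral replicate 1, where Lyz2 read 24.4 CPM against 8.23 and 4.05 in replicates 2 and 3. Of 10 endothelial and mural markers 3 were higher, of 10 astrocyte markers 2 were higher and 2 lower with Gfap at 408 against 83.3 CPM, of 10 microglia markers 1 was higher and 2 lower, and of 10 oligodendrocyte markers 1 was higher. None of 11 striatal and none of 9 choroid plexus markers passed (edgeR; 0 and 0 at an unadjusted p under 0.05), although their sums varied widely between libraries. The part of any of these shifts in the values of the members was not tested.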

How the data were processed

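Total RNA of 27 cortical samples (9 groups of 3) was depleted of ribosomal RNA and sequenced, per the labels' protocols. The deposited values are whole-number counts per gene, made by the authors with STAR 2.5.0a and featureCounts 1.4.3-p1 on mm10, per the submitters' processing notes. Neither the annotation nor the strand setting of the counting is given in the sources used here. Of 22340 rows, 18087 passed edgeR's filterByExpr (minimum count 10, minimum total 15), all 43 members among them.

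Counts were tested with edgeR 4.0.16 in R 4.3.3: TMM scaling, 1 mean per group over all 27 libraries, robust quasi-likelihood F-tests and Benjamini-Hochberg adjustment over all genes tested, with a threshold of 0.05. The script was tested on simulated data. The common biological coefficient of variation was 0.175. Fold changes are log2 ± SE. DESeq2 1.42.0, other scalings and filters, fits on the compared libraries alone, the day of surgery as a block and the omission of libraries were tried as alternatives. Replicate numbers mark days of surgery per the labels, so they pair libraries. The mean correlation of deviations from group means was 0.0475 between libraries of the same number and -0.0237 between others.

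By rule, levels by library are given for up to 3 members per role, those with the smallest adjusted p in any ipsilateral against contralateral comparison among members that passed one, and for up to 4 genes of each other list with the smallest p at 24 h the values are named. The members and all gene lists were chosen with earlier results of these data known. Exon lengths and positions are from GENCODE M21, promoters from RefSeq.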

Additional observations from a re-analysis of the deposited data

Results flagged for a closer look

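For 2 members the ipsilateral minus contralateral effect differed between the 4 times by a test of that difference. The same test passed for 1.34% of all genes tested. Of 24 omissions of 1 library, Rab3a missed the threshold in 4 and Nsf in 5. For Rab3a the adjusted p was 0.0238835 (edgeR), with log2 fold changes of 0.11 at 3 h and -0.72 at 24 h. For Nsf the adjusted p was 0.024688 (edgeR), with 0.06 at 3 h and -0.62 at 24 h.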

How the results depend on the processing

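With 1 library omitted, the 24 h count of lower members was 22 to 28 against the contralateral side and 23 to 30 against sham, the 3 h counts and those of contralateral cortex against sham were 0 throughout, and no member called at any time changed sign. At 6 h the count against the contralateral side (5) became 2 with no filter, 8 with only the libraries compared and 9 with contralateral 3 h replicate 1 and ipsilateral 24 h replicate 1 left out together, and 0 to 4 with 1 library omitted (0 to 1 higher, Syt4). At 12 h it (10) became 19 with those 2 libraries left out and 3 to 10 with 1 omitted. With those 2 left out the genes called lower over the whole table also rose, from 387 to 887 at 6 h and from 777 to 1370 at 12 h. At 6 h they numbered 321 with no filter and 815 with only the libraries compared. At 12 h 1 member, Doc2b, was called higher by DESeq2, with the replicate block and in some omissions (0 to 1). Genes called higher over the whole table at 12 h numbered 1437, with 1766 by DESeq2 and 1544 with the replicate block. Against sham at 6 h the count (0) became 3 lower and 1 higher with only the libraries compared, 2 by DESeq2, 2 with the replicate block, 5 with the 2 libraries left out and 0 to 2 with 1 omitted. Genes lower over the whole table in that comparison numbered 197, against 547 with only the libraries compared and 356 by DESeq2. They numbered 289 with the block and 559 with the 2 libraries left out. Higher genes rose from 909 to 1570 with only the libraries compared. At 12 h it (15) was 4 to 13 with 1 omitted. Contralateral against sham, 1 member was lower at 12 h with the 2 libraries left out, and 1 at 24 h in that setting and with only the libraries compared. With the 2 left out, lower genes over the whole table rose from 26 to 99 at 12 h. At 24 h they rose from 15 to 42 in that setting and to 60 with only the libraries compared. The time test (2) gave 4 by DESeq2, 8 as the 24 h minus 3 h contrast alone, chosen after the data were seen, and 0 to 3 with 1 omitted. The block lost 0 of 91 calls, and in the 12 comparisons and the time test it changed none beyond those given with it in the text. In the 24 h minus 3 h contrast alone it gave 10 members, adding Cplx1 and Erc2. Over the whole table that contrast was lower for 517 genes with the block and 309 without it. Whole-table counts for omissions of 1 library in the 12 comparisons, and for the time test in these settings, are not given. The cause of these changes was not tested, except that omissions leave fewer libraries. The scarce members Doc2b and Sv2c had the largest standard errors, 0.32 and 0.33 at 24 h.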
